A study of Mus musculus with 2 samples.

Results

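The replication-dependent histone genes encode the H1, H2A, H2B, H3 and H4 proteins that package newly copied DNA, and in the mouse they lie in clusters on chromosomes 3, 11 and 13. They were taken as the RefSeq protein-coding genes on those chromosomes whose current or older symbol belongs to the Hist1 to Hist4 series, which gave 66 of 21887 protein-coding genes (GRCm38.p6). Current symbols alone gave 63 of them, and 3 came in by an older symbol: H2bu2 (Hist3h2ba), H2aw (Hist3h2a) and the gene listed as H4bc24 (Hist1h2br), counted here with H2B. By class there were 6 H1, 18 H2A, 18 H2B, 12 H3 and 12 H4 genes. Their median length was 492.5 bp, and 60 of the 66 were 1 kb or shorter. The measurement was CUT&Tag, in which an antibody guides a transposase to chromatin so that the DNA beside the bound protein is cut and tagged, here with an antibody to PHLPP1, a protein phosphatase best known for acting on AKT. The cells were primary bone marrow-derived macrophages, matured in M-CSF at 20 ng/ml, and were either left untreated or stimulated with IL-4, the cytokine of alternative macrophage activation, at 20 ng/ml for 4 h. Each group had 1 library, so no difference between groups could be tested. Both libraries were read as wild-type from the design text. The number of animals is not given in the sources used here, and no library of Phlpp1-deficient cells or of a control antibody was analysed here.

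Most of these genes have no introns, and their transcripts end in a stem-loop in place of a poly(A) tail, which the protein SLBP binds. Their transcription rises as cells copy their DNA, when the coactivator NPAT, a target of cyclin E-CDK2, gathers with them in nuclear histone locus bodies. Many H2A and H2B genes stand head to head and share the DNA between their start sites, and cultured macrophages divide in response to M-CSF, so histone supply is part of their normal cycle.

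The IL-4 list held 240661 peaks and the untreated list 149349, a ratio of 1.61. Fragments at a summit, solved from the deposited fold and p, had a median of 4 with IL-4 and 5 without it, and the smallest listed peaks rested on 3 and 4 fragments. The calling background was at its lowest 0.643 fragments with IL-4 and 0.936 untreated, so the list with more peaks also had the lower background. The part of these list differences in the results was not tested. A gene-end peak is one whose summit lay at most 1 kb from an annotated end of the gene. Of 10 macrophage marker genes, 7 had a gene-end peak with IL-4 and 2 untreated; the defining genes Csf1r, Adgre1 and Itgam had none in either. For markers of other cells the IL-4 counts were 3 of 5 for T and NK cells, 1 of 4 for B cells and 2 of 5 for neutrophils. They were 1 of 4 for erythroid cells and 1 of 4 for stromal cells. At a q of at most 0.05 the IL-4 list had 3 of the 10 macrophage markers and none of the others, beside 18.3% of all genes. In the untreated list the counts were 2 of 5 for T and NK cells and 2 of 4 for B cells. These were larger shares than the 2 of 10 macrophage markers, and the other 3 cell types had none. The background over all genes was 49.3% with IL-4 and 22.7% untreated, so the untreated macrophage count was near it. Sets of 4 to 10 markers are too small to decide which cells were present.

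In the IL-4 library, peaks stood at most histone genes, and in the untreated library at few. A gene-end peak was listed for 43 of the 66 histone genes with IL-4 (65.2%, Wilson 95% interval 53.1 to 75.5) and for 5 without it (7.58%, 3.28 to 16.5). Over all protein-coding genes the shares were 49.3% with IL-4 and 22.7% untreated. The histone genes thus lay above the background of all genes with IL-4 and below it in untreated cells. They are short, and a short gene has less DNA near its ends. The other protein-coding genes of 1 kb or shorter are therefore given as a further reference. That set is alike in length only, and which kinds of gene it holds was not examined. Among those other short genes, 18.4% had such a peak with IL-4 and 12.1% untreated. The histone share with IL-4 was above this reference too, while the interval of the untreated share included it. Peaks listed under IL-4 alone were found at 38 histone genes (57.6%, 45.6 to 68.8), against 35.5% of all genes and 15.2% of the other short genes. The remaining histone genes were 5 with peaks in both lists (7.58%, against 13.8% of all genes) and 23 with none (34.8%, against 41.8%). No histone gene had a peak in the untreated list alone, a class that held 8.93% of all genes. At a q of at most 0.05 the counts were 24 with IL-4 (36.4%, 25.8 to 48.4), against 18.3% of all genes, and 0 untreated (0 to 5.50). The untreated interval includes the 4.02% of all genes. These intervals cover counting error only, and neighbouring histone genes can share a peak. The same q is not the same height in both lists: at H2ac12, 6 fragments gave a −log10 q of 1.84 with IL-4 and 1.11 untreated. At a −log10 q of at least 5 neither list had a gene-end peak at a histone gene. Over all genes such peaks stood at 2.63% with IL-4 and 0.0548% untreated, so a count of 0 is near that background.

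**Figure D1:**
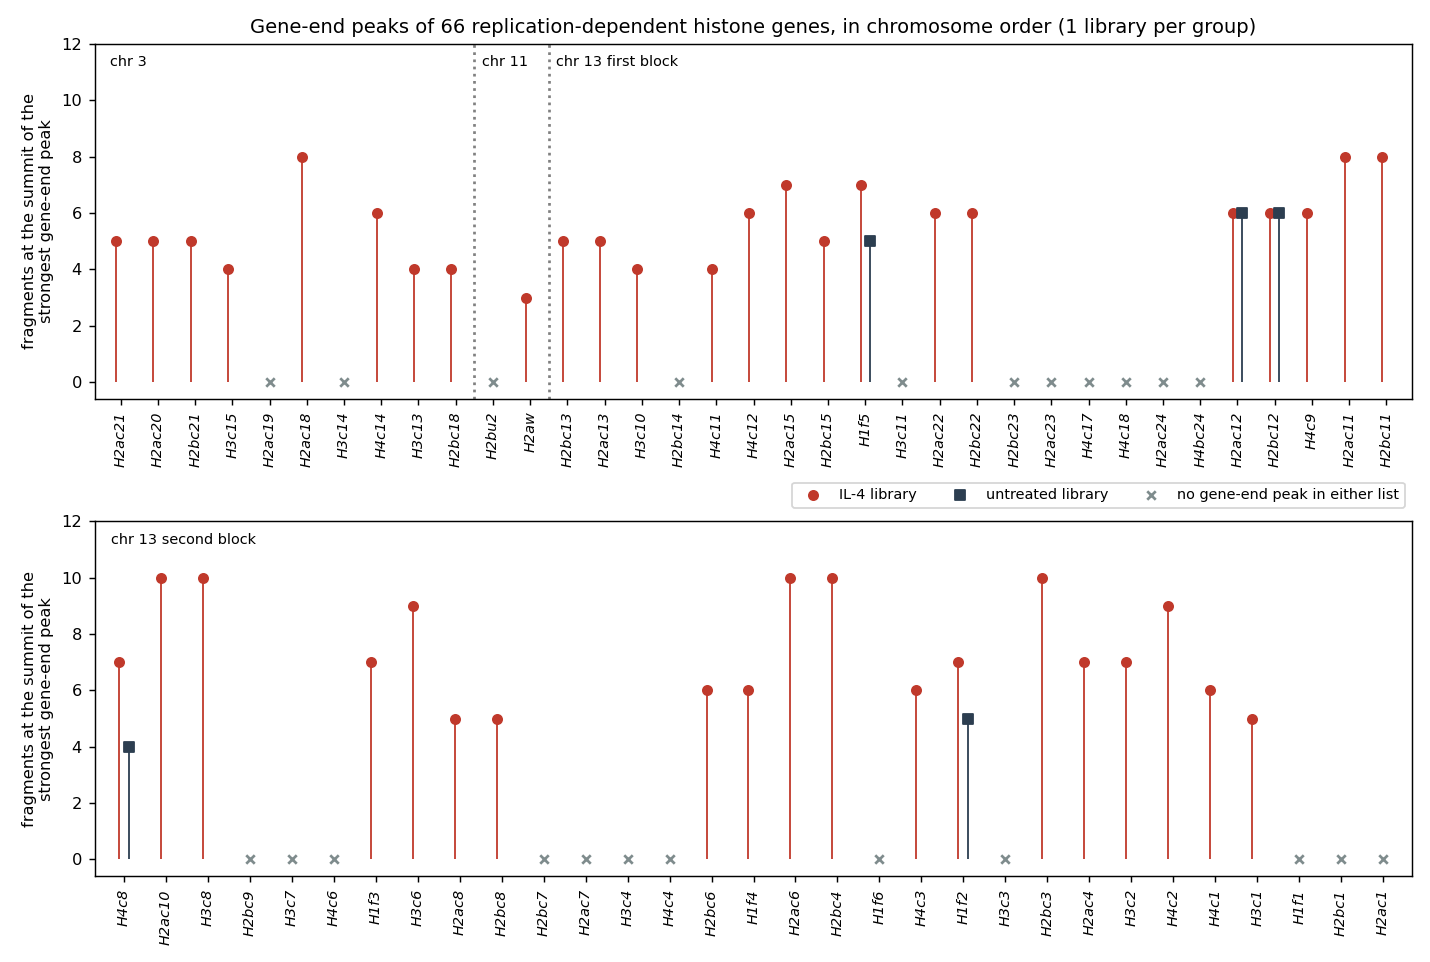
Fragments at the summit of the strongest gene-end peak (vertical axis) for each of the 66 histone genes in chromosome order; circles are the IL-4 library, squares the untreated library, and crosses mark genes with no gene-end peak in either list. IL-4 points reach 10 fragments and stand at 43 genes, while untreated points reach 6 and stand at 5.

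The peaks were modest in height. The 43 genes shared 42 distinct IL-4 peaks, of which 15 served more than 1 histone gene, with 3 to 10 fragments at the summit and a median of 6. The gene-end peaks of all genes in that list had a median of 4 fragments. Of the 42 peaks, 20 passed a q of at most 0.05 (47.6%, Wilson 33.4 to 62.3), against 27.9% (27.2 to 28.7) of all IL-4 gene-end peaks. Histone peaks were therefore more often past that threshold than gene-end peaks at large, without reaching the top of the list, where the strongest gene-end peak had 41 fragments. Taking the strongest peak of each gene, 5 of 43 histone genes reached 10 fragments, as did 8.17% of all genes with a peak. Of those 5, H2ac10 and H3c8 share 1 peak and H2ac6 and H2bc4 share another, so the gene count repeats shared peaks. The untreated list held 4 distinct peaks at histone genes, each 150 bp wide, with 4 to 6 fragments, and none passed a q of 0.05. The share among all its gene-end peaks was 15.7%, and the interval for 0 of 4 peaks (Wilson 0 to 49.0) includes it.

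Selected stretches are printed below to show where the summits fell: the 3 sites of the 10-fragment peaks (H2ac6-H2bc4, H3c8 and H2bc3), H2ac11-H2bc11 as a further pair with a central summit, H2ac12-H2bc12 as the pair with a peak in both lists, and H2bc1-H2ac1 as a pair with none (RefSeq GRCm38.p6, plus strand, 5′ to 3′). The first 4 run from gene to gene between an H2A and an H2B gene, and the last 2 are the 250 bases before a start site. Capitals mark the TATAAA element, the CCAAT box and the octamer ATTTGCAT on either strand. The first is the core promoter element of TBP, the CCAAT box is bound by NF-Y, and the octamer is bound by OCT1 (Pou2f1), long known from H2B promoters.
H2ac6-H2bc4 (chr13:23683960-23684198): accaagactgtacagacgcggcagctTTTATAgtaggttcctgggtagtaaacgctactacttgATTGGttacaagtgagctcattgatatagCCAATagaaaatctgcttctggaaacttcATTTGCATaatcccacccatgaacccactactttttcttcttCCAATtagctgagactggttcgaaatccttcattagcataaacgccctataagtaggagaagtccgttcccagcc
H2ac11-H2bc11 (chr13:22042950-22043197): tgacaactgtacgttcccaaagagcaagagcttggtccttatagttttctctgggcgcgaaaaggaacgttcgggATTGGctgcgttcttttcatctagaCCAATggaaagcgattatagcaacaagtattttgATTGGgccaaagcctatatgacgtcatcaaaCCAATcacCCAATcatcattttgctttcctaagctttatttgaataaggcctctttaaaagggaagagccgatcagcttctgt
H2ac12-H2bc12 (chr13:22035644-22035820): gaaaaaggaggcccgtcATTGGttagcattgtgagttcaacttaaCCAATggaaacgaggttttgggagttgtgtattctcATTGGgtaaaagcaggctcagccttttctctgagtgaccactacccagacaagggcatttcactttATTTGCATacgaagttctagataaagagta
H2bc1-H2ac1 (chr13:23934157-23934436): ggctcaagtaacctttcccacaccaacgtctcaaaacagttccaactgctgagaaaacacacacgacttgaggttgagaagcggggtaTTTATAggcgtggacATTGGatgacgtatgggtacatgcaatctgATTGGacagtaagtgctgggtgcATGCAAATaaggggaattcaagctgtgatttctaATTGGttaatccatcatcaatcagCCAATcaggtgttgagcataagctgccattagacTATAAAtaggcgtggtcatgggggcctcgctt
H3c8 (chr13:23535168-23535417): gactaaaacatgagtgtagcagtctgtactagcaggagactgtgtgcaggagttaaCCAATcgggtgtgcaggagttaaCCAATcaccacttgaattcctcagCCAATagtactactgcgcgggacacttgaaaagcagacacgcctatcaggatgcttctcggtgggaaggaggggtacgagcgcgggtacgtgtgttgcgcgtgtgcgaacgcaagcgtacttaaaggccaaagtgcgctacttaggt
H2bc3 (chr13:23746484-23746733): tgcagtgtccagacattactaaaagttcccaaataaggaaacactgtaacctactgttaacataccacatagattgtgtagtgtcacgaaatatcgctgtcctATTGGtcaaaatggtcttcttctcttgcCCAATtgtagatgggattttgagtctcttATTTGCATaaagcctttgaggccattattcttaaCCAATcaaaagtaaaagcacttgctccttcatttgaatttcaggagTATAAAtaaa
The IL-4 summit fell on base 131 of the H2ac6-H2bc4 stretch, which holds 1 TATAAA, 3 CCAAT and 1 octamer. It also fell on base 131 of the H2ac11-H2bc11 stretch, with 5 CCAAT and neither of the other motifs. In the H2ac12-H2bc12 stretch the IL-4 summit was at base 23 and the untreated summit at base 165. The H2bc1-H2ac1 stretch holds 4 CCAAT, 2 TATAAA and 1 octamer, and no peak of either list touched it. The IL-4 summit stood at base 174 of the H3c8 stretch and at base 188 of the H2bc3 stretch.

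H2A and H2B pair as dimers in the nucleosome. With IL-4, 13 of 18 H2A genes (72.2%) and 11 of 18 H2B genes (61.1%) had a gene-end peak, beside 49.3% of all genes. In untreated cells 1 of each did (5.56%), beside 22.7% of all genes. The highest −log10 q at any histone gene, 4.48, belonged to a peak of 10 fragments (exact Poisson 95% interval 4.80 to 18.4; fold over local background 6.05) at chr13:23683917-23684364, between H2ac6 and H2bc4. The H2ac10 gene took its value from a peak of 10 fragments (fold 5.64, −log10 q 4.00) at chr13:23535270-23535456. That summit lay 963 bp from the nearest end of H2ac10 but 77 bp before the start of its neighbour H3c8. H2bc3 had a peak of 10 fragments (fold 5.20, −log10 q 3.40) at chr13:23746362-23746889, with the summit 63 bp before its start. On chromosome 3, H2ac18 had 8 fragments (3.45 to 15.8; fold 5.44, −log10 q 3.40) at chr3:96245106-96245405, 251 bp before its start. None of these genes had a gene-end peak in the untreated list, so no fold between the groups is given; an unlisted site can still hold fragments below the calling threshold.

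Neighbouring H2A-H2B pairs showed where on the DNA between the genes the signal sat. The promoter windows place them head to head except for H2ac20-H2bc21 and H2ac6-H2bc4, where the strand of 1 gene was not known here. Of 12 neighbouring H2A-H2B pairs with 163 to 280 bp between the genes, 8 had an IL-4 peak that touched the DNA between them, 6 had the summit there, and in 3 the peak covered the whole of it. The pairs with a summit between the genes were H2bc13-H2ac13 (5 fragments), H2ac15-H2bc15 (5), H2ac22-H2bc22 (6), H2ac12-H2bc12 (6), H2ac11-H2bc11 (8) and H2ac6-H2bc4 (10). In untreated cells a single pair, H2ac12-H2bc12, had a peak there. Close pairs of other genes were not counted, so whether these counts are particular to histone pairs was not tested. Summits near starts were common with IL-4: over all genes, 12.3 and 11.7 per 100 genes fell in the 250 bp before and after the start. H2bc23-H2ac23, H2ac24-H4bc24, H2bc7-H2ac7 and the testis pair H2bc1-H2ac1 had no peak between the genes in either list.

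Among H3 genes, 7 of 12 had a gene-end peak with IL-4 (58.3%, near the 49.3% of all genes). None had one in untreated cells, beside 22.7% of all genes, and 12 genes are few for such a share. The strongest was the 10-fragment peak before the start of H3c8, printed above. H3c6 followed with 9 fragments (4.12 to 17.1; fold 4.58, −log10 q 2.58) at chr13:23562299-23562696, its summit 21 bp before the start. H3c15, H3c10 and H3c13 had peaks of 4 fragments each. H3c3, H3c4, H3c7, H3c11 and H3c14 had none within 1 kb.

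Among H4 genes, 8 of 12 had a gene-end peak with IL-4 (66.7%) and 1 in untreated cells (8.33%), beside 49.3% and 22.7% of all genes. The strongest belonged to H4c2, with 9 fragments (fold 4.29, −log10 q 2.31) at chr13:23756045-23756525, 553 bp before its start, and a further peak of 8 fragments 9 bp from its other end. H4c8 was the H4 gene with peaks in both lists. Its IL-4 peak had 7 fragments (−log10 q 1.78; chr13:23531003-23531181) and its untreated peak 4 (−log10 q 0.408; chr13:23531115-23531264), and the peaks overlapped.

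The linker histones, which bind the DNA between nucleosomes, had 4 of 6 genes with a gene-end peak with IL-4 (66.7%) and 2 in untreated cells (33.3%). All genes stood at 49.3% and 22.7%. The H1 share was thus above that background in both lists, unlike the whole histone set in untreated cells, but it rests on 6 genes. H1f3 led with 7 fragments (−log10 q 2.15), its summit 28 bp from the end opposite its start. H1f5 had IL-4 peaks of 7 (−log10 q 2.04) and 5 fragments (1.09), and the second overlapped an untreated peak of 5 fragments (1.62 to 11.7; −log10 q 0.737; chr13:21779966-21780115). H1f2 had IL-4 peaks of 7 (−log10 q 1.72) and 6 fragments (1.26) and an untreated peak of 5 (0.737; chr13:23739931-23740080) that overlapped neither. H1f1 and the testis gene H1f6 had no gene-end peak.

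For the 5 genes with peaks in both lists, the values per library were close. The fragments of the strongest peak, IL-4 then untreated, were 7 and 5 for H1f5, 7 and 5 for H1f2, 7 and 4 for H4c8, and 6 and 6 for H2ac12 and H2bc12, which share 1 peak in each list. The H2ac12-H2bc12 peaks overlapped (chr13:22035523-22035911 with IL-4, −log10 q 1.84; chr13:22035762-22035911 untreated, −log10 q 1.11). In each case the count of 1 library lay within the Poisson interval of the other.

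Some histone genes without a peak were neighbours, and others were scattered over the clusters. Genes with no gene-end peak in either list were 34.8% of the histone genes and 41.8% of all protein-coding genes, so a gene without one is ordinary. The 3 genes known from the male germ line, H2bc1 (Th2b), H2ac1 (Th2a) and H1f6 (H1t), had no gene-end peak in either list, but 3 genes are too few to set apart from that share. Nor did the 6 genes of a stretch on chromosome 13 from H2bc23 to H4bc24 (chr13:21806412-21837530, 31.1 kb), which held 2 IL-4 peaks and 0 untreated peaks in all. The 300-base promoter windows of H2bc23 and H4bc24 were identical at 300 of 300 bases, and how fragments that align to more than 1 place were treated is not given in the sources used here. The remaining genes with none in either list were H2ac19, H3c14, H2bu2, H2bc14, H3c11, H2bc9, H3c7, H4c6, H2bc7, H2ac7, H3c4, H4c4, H3c3 and H1f1. The 1 kb limit decided a few calls. Just inside it with IL-4 were H3c13 at 897 bp (4 fragments) and H2ac10 at 963 bp (10 fragments). Just outside were H1f1 at 1051 bp (5 fragments), H3c3 at 1150 bp (10 fragments) and H2ac19 at 1262 bp (4 fragments). The H3c3 summit is that of the H2bc3 peak. In the untreated list, H1f2 at 474 bp was the farthest inside, and the next histone gene, H4c12, had its nearest summit at 2661 bp.

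With IL-4, the 250 bp just before the start sites held more histone summits than any other such stretch within 1.5 kb, but other stretches also stood above all genes. Strand and start were known for 61 histone genes. In the 250 bp before the start there were 16 gene-summit pairs from 11 distinct summits, or 26.2 per 100 genes (exact Poisson 15.0 to 42.6), against 12.3 (11.8 to 12.9) over 17492 protein-coding genes. In the 250 bp after the start the rates were 13.1 (5.66 to 25.8) and 11.7, and from 500 to 250 bp before it 1.64 (0.0415 to 9.13) and 5.96. Other stretches went both ways. From 500 to 750 bp after the start the rates were 11.5 (4.61 to 23.6) and 4.44, and from 750 to 500 bp before it 8.20 (2.66 to 19.1) and 3.50. From 1000 to 750 bp before the start they were 0 and 2.62, and from 1000 to 1250 bp after it 0 and 2.60. A summit between a divergent pair counts for both genes, so the histone pairs are not independent and their intervals are too narrow. In the untreated list the 250 bp before the start held 2 pairs, or 3.28 per 100 genes (0.397 to 11.8), against 3.06 over all genes.

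**Figure D2:**
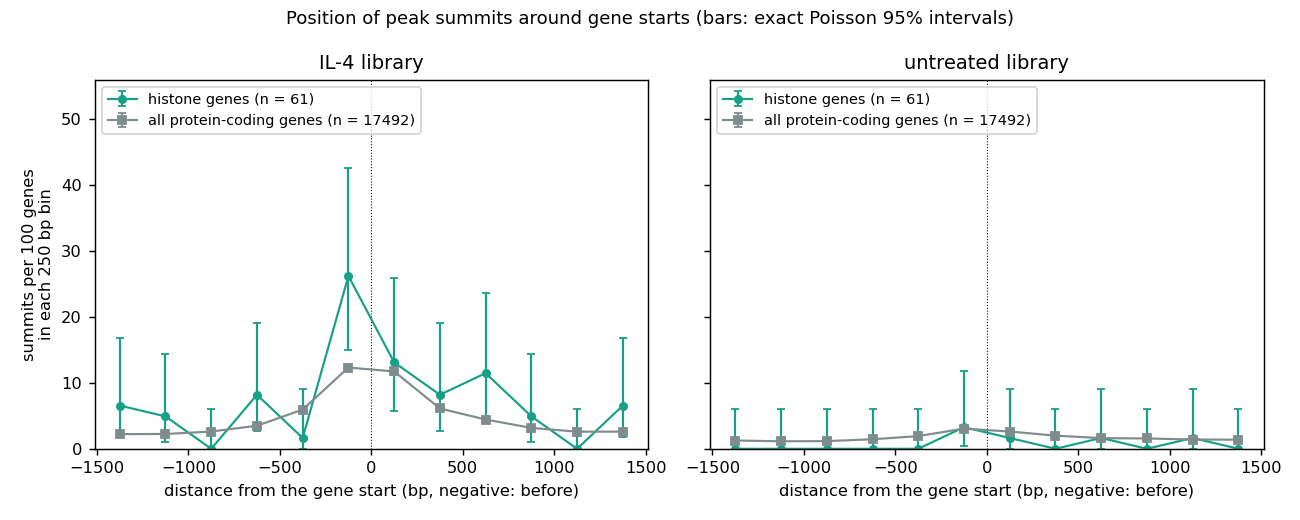
Peak summits per 100 genes in 250 bp bins by distance from the gene start (bp, negative before it), for the 61 histone genes of known start (circles) and 17492 protein-coding genes (squares), with exact Poisson 95% bars and 1 panel per library. With IL-4 the histone genes stand at 26.2 in the bin before the start, where all genes stand at 12.3; in the untreated panel both stand near 3.

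The histone promoters shared sequence features that the choice of genes did not use. RefSeq windows from 250 bases before to 50 after the start were searched on both strands. TATAAA was found in 35 of 61 histone windows (57.4%), against 14.2% of 27025 windows over all genes. That reference set holds 1 window per gene and is not limited to protein-coding genes. CCAAT stood in 53 (86.9%), against 38.0%, and the octamer ATTTGCAT in 13 (21.3%), against 1.77%. The octamer matches were in 7 of 18 H2A and 6 of 16 H2B windows and in no H1, H3 or H4 window. A divergent pair can share a match, since its windows overlap. CCAAT was in every H1, H2A, H2B and H3 window and in 3 of 11 H4 windows. The palindrome of TTC and GAA with 4 bases between, the form of site known for STAT6, the transcription factor of IL-4 signalling, was in 5 windows (8.20%), against 7.0% of all windows. The 39 histone genes with an IL-4 gene-end peak and the 22 without had similar shares of TATAAA (59.0 and 54.5%) and CCAAT (87.2 and 86.4%). The octamer was in 25.6 and 13.6%, and the STAT6 palindrome in 5.13 and 13.6%, shares that rest on few genes. The median GC content of the windows was 44.3% with a peak and 47.2% without, against 52.7% over all 27025 windows. A match describes the letters of a window and is not a binding site.

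Counted across whole clusters with all listed peaks, and with all flanks pooled, IL-4 peaks were about as dense as in the flanks. Untreated peaks were sparser. Histone genes up to 500 kb apart formed 4 clusters: chr3:96219885-96270192 (10 genes), chr11:58948911-58955192 (2 genes), and a first block (chr13:21715711-22043658, 23 genes) and a second block (chr13:23531044-23934913, 31 genes) on chromosome 13. Over all 4, the IL-4 list had 93 peaks, 118 per Mb (95.2 to 145), against 108 (103 to 114) in the 2 Mb on each side, a density ratio of 1.09 (0.876 to 1.35). The untreated list had 28 peaks, 35.5 per Mb (23.6 to 51.3), against 66.1 (61.9 to 70.6), a ratio of 0.537 (0.355 to 0.782). The pool is uneven. Chromosomes 3 and 11 gave 4 Mb of flank each but clusters of only 0.0503 and 0.00628 Mb, and their flanks were denser than those on chromosome 13. Against its own flanks each cluster had an IL-4 ratio above the pooled one: 1.87 and 1.32 on chromosomes 3 and 11, and 1.35 and 1.16 for the 2 blocks. The untreated ratios were 0, 0, 0.693 and 0.644. The IL-4 ratio depended on the choice of peaks and of cluster bounds: it was 2.48 for peaks at a q of at most 0.05 (34.2 against 13.8 per Mb), and 0.79, below the flanks, where genes were joined up to 3 Mb apart. With genes joined up to 100 kb apart the untreated ratio was 0.325. Over all chromosomes the densities were 93.7 and 58.2 per Mb.

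Each cluster showed the same order of the lists. The chromosome 3 cluster held 11 IL-4 peaks, 219 per Mb (109 to 391), beside 117 in its flanks, and 0 untreated peaks, which allows up to 73.3 per Mb beside 65.0 in its flanks. The first block on chromosome 13 had 110 per Mb (76.9 to 152) with IL-4 beside 81.5 in its flanks, and 36.6 (18.9 to 63.9) untreated beside 52.8. The second block had 111 (81.3 to 149) beside 96.1, and 39.6 (22.6 to 64.3) beside 61.5. In the 1487 kb between the blocks, which hold 36 vomeronasal receptor genes among 41 genes, the densities were 73.3 and 44.4. The small chromosome 11 cluster held 1 IL-4 peak and 0 untreated peaks. For each single cluster the interval of the density ratio included 1. The departure from the flanks in untreated cells was thus clear of counting error only for the clusters combined, where the flanks are unevenly pooled.

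**Figure D3:**
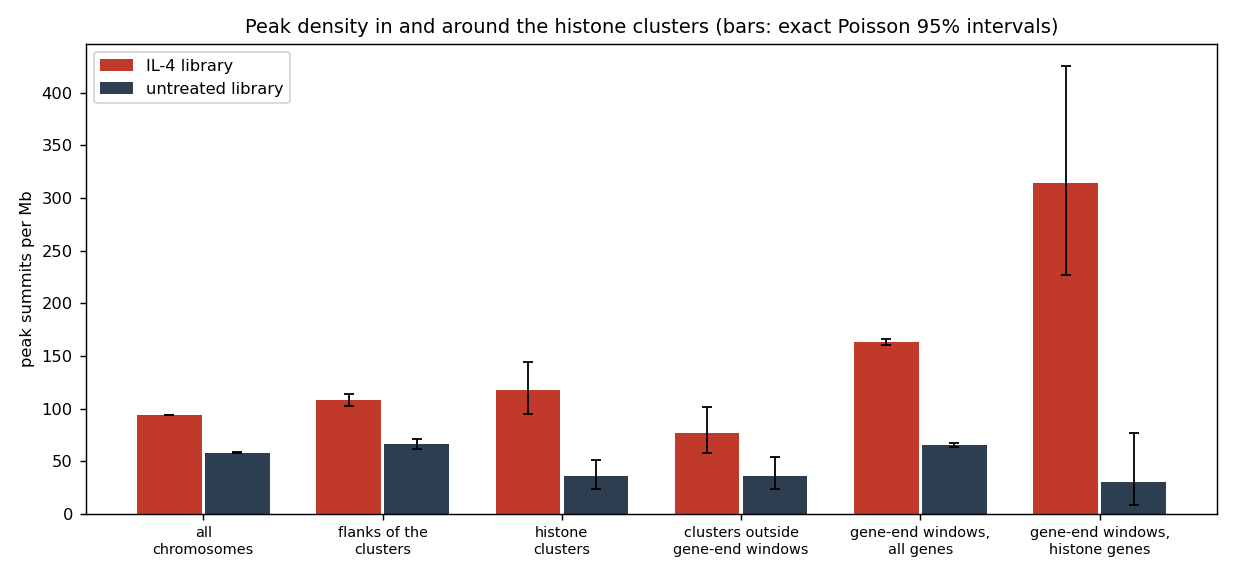
Peaks per Mb (vertical axis) over all chromosomes, the cluster flanks, the histone clusters, the clusters outside gene-end windows, and the gene-end windows of all and of histone genes, by library, with exact Poisson 95% bars. With IL-4 the 1 kb windows at histone gene ends reach 315 per Mb beside 163 for all gene-end windows, and in untreated cells 30.0 beside 65.6.

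Within the clusters, the IL-4 peaks concentrated at the genes themselves. The merged 1 kb windows around histone gene ends (0.134 Mb) held 42 IL-4 peaks, 315 per Mb (227 to 425), against 76.9 (57.3 to 101) in the rest of the clusters and 163 in the windows of all genes. The histone windows were thus 4.09 times as dense as the rest of the clusters (2.65 to 6.27) and 1.93 times as dense as all gene-end windows (1.39 to 2.61). In the untreated list the same windows held 4 peaks, 30.0 per Mb (8.16 to 76.7), against 36.2 (23.2 to 53.9) and 65.6. Those ratios were 0.827 (0.209 to 2.41) and 0.457 (0.124 to 1.17), and both intervals include 1.

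Set list against list, the clusters had 3.32 IL-4 peaks for each untreated peak (2.16 to 5.27), the flanks 1.63 (1.50 to 1.78) and all chromosomes 1.61. The ratio in the clusters was 2.03 times that in the flanks (1.32 to 3.13, normal interval on the log scale). The histone gene-end windows had 10.5 (3.81 to 40.3), the clusters outside them 2.13 (1.28 to 3.61), and the gene-end windows of all genes 2.49 (2.41 to 2.57). These intervals are of counts in 2 libraries and carry no spread between replicates. The ratio of clusters to flanks rose to 4.5 where histone genes were joined up to 100 kb apart (66 IL-4 and 9 untreated peaks in 6 clusters), and was 1.32 where they were joined up to 3 Mb apart.

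**Figure D4:**
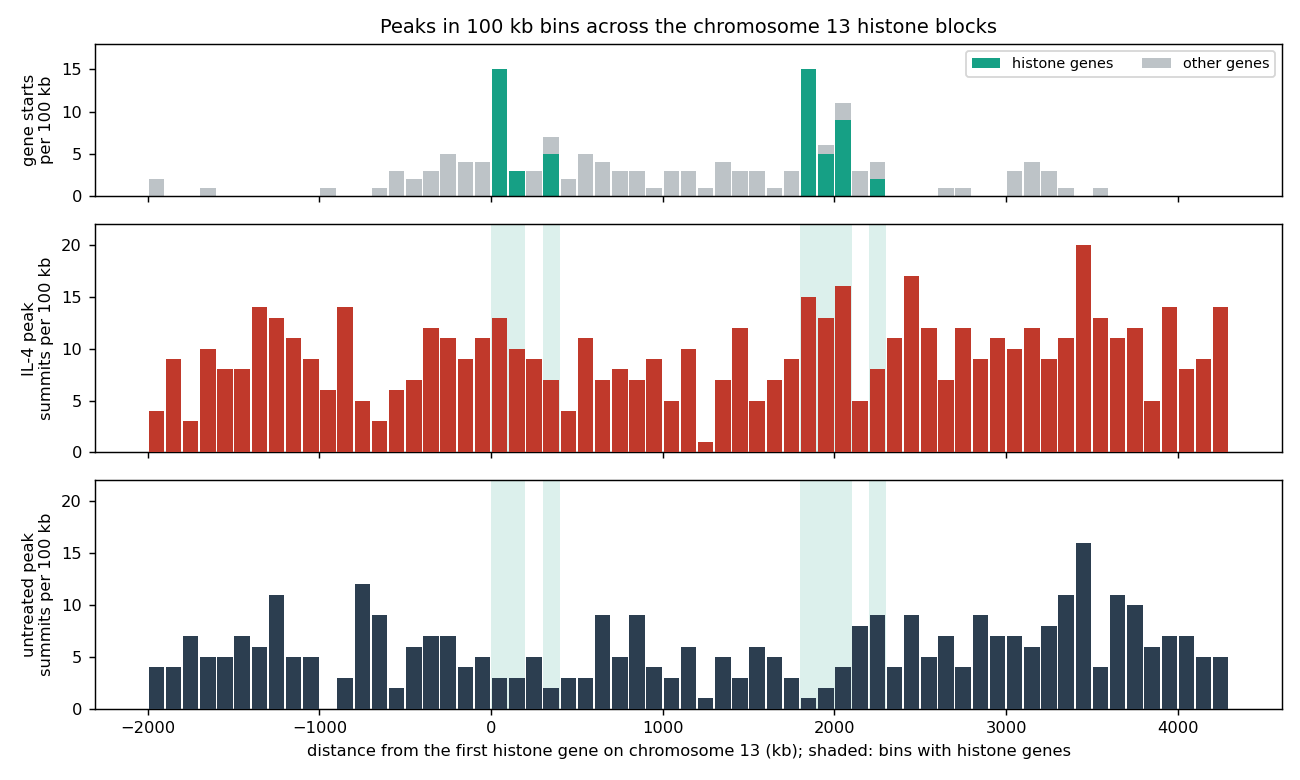
Gene starts, IL-4 summits and untreated summits per 100 kb bin (vertical axes) along chromosome 13, by distance in kb from the first histone gene; shading marks bins with histone genes. In the 5 bins with at least 5 histone genes the IL-4 counts run from 7 to 16 and the untreated counts from 1 to 4.

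In 100 kb bins along chromosome 13, the 5 bins with at least 5 histone genes held 7 to 16 IL-4 summits (median 13) and 1 to 4 untreated summits (median 2). The 56 bins without histone genes held 1 to 20 (median 9) and 0 to 16 (median 5.5). Over all 7 bins with any histone gene the counts were 7 to 16 with IL-4 (median 13) and 1 to 9 untreated (median 3). The histone bins lay inside the range of the other bins in both lists, and 2 of the 7, with 7 and 8 IL-4 summits, were below the median of the other bins. Of the 9 other genes inside the clusters, 2 had an IL-4 gene-end peak and 1 an untreated one. In the flanks 143 of 278 genes (51.4%) had an IL-4 gene-end peak and 63 (22.7%) an untreated one, close to all genes.

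Few peaks coincided between the lists, in the clusters as elsewhere. Of the 93 IL-4 peaks 3 overlapped an untreated peak (3.23%, Wilson 1.10 to 9.06), and of the 28 untreated peaks 3 overlapped an IL-4 peak (10.7%, 3.71 to 27.2). In the flanks the shares were 7.48 and 12.1%, and over all chromosomes 5.42 and 8.73%. The intervals of the clusters include these shares. All 3 overlaps in the clusters were at histone genes, namely at H1f5, H2ac12-H2bc12 and H4c8.

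Genes that make and handle histones gave a wider spread of heights. Of 21 genes for histone transcription and mRNA processing, 14 had a gene-end peak with IL-4 and 4 in untreated cells, and at a q of at most 0.05 the counts were 10 and 0. The shares of all genes were 49.3% and 22.7%, and 18.3% and 4.02% at that q, so the untreated count was near that background. Npat, the coactivator named above, had 14 fragments with IL-4 (−log10 q 9.99) and 4 untreated; its peak also lay within 1 kb of an end of Atm. Ccne1, which encodes cyclin E, had 17 (9.60) and 4, and the cell cycle factor E2f3 had 13 (4.35) and 4. Each of these 3 stood above every histone gene in fragments with IL-4. The stem-loop binding protein gene Slbp had 6 (1.79), and Casp8ap2, the locus body protein FLASH, had 6 (1.81). The octamer factor gene Pou2f1 had 9 (3.01) and Zfp473, whose protein takes part in histone pre-mRNA processing, had 9 (3.89). The cleavage factors that cut histone mRNA were represented by Sympk with 8 (3.01) and 6 untreated, Cpsf2 with 7 (2.58) and Cpsf3 with 6 (1.34). The IL-4 peaks of Slbp, Zfp473, Cpsf2, Cpsf3 and Sympk also lay within 1 kb of an end of a neighbour, namely Tmem129, Vrk3, Ndufb1, Iah1 and Foxa3. The untreated peak of Sympk lay within 1 kb of an end of Rsph6a and not of Foxa3. Its values with IL-4 and untreated thus need not be of the same site.

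Histone chaperones, which carry histones to DNA, had 10 of 12 genes with a gene-end peak with IL-4 and 5 in untreated cells, with 6 and 2 at a q of at most 0.05, against the same shares of all genes (49.3% and 22.7%, and 18.3% and 4.02%). Daxx had 12 fragments (−log10 q 4.94) and 8 (2.07), and Nap1l4 had 8 (3.40) and 7 (1.57). The untreated peak of Daxx lay within 1 kb of an end of Zbtb22 and its IL-4 peak did not, so these need not be the same site. Chaf1b had 8 (2.93) and 6 (1.11), and Asf1b 7 (2.58) and 4 (0.408). Nap1l1 with 9 (3.65) and Rbbp4 with 6 (1.77) had a gene-end peak with IL-4 alone, and that of Rbbp4 also lay within 1 kb of an end of Zbtb8os. Histone genes outside the clusters, most of them replication-independent and expressed outside S phase, had 10 of 12 with IL-4 and 6 in untreated cells, with 4 and 2 at that q, beside the same shares of all genes. H3f3a had 11 (4.16) and 6 (1.11), and H3f3b, which encodes the same H3.3 protein, had 7 (1.43) and 7 (1.57). H2az1 had 7 (2.08) with IL-4, H2ax 6 (1.84) and 6 (1.11), and H2az2 5 (1.26) and 7 (1.57). Both H2ax peaks also lay within 1 kb of an end of Dpagt1. Peaks in both lists were thus found at 6 of these 12 histone genes and at 5 of the 66 in the clusters, against 13.8% of all genes (this difference was not tested).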

How the data were processed

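CUT&Tag for PHLPP1 was deposited as 1 narrowPeak list per library. Tools named in the submitters' processing notes, without roles, are MACS2 2.2.7.1, Bowtie 0.12.8 and DiffBind, and the build is mm10. Duplicate handling, fragment length and the control are not given there. The deposited values are, by the layout of the file, a display score, the fold enrichment at the summit (a linear ratio), −log10 p and −log10 q, as the authors' caller wrote them. They describe peaks within a list. The summit column is an offset from the peak start; positions are given counting from 1.

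The deposited fold, read as (fragments + 1)/(background + 1), and the Poisson p gave the fragments and background of every summit, and 100% of entries gave a whole number within 0.01 of −log10 p. Entries that repeat an interval (654 with IL-4, 203 untreated) were reduced to the strongest summit. Total reads were not used. Fragments are not independent molecules, so Poisson, Wilson and ratio intervals (95%) cover counting error only.

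Gene positions, symbols and promoter windows came from RefSeq (GRCm38.p6, the build of mm10). The gene table gives no strand, so both gene ends were used; strand came from the promoter windows, which 61 of 66 histone genes matched. Peaks were assigned with Python 3.11.15, pandas 2.3.3 and scipy 1.17.1, after the counting had been tested on simulated data. Overlap means at least 1 bp.

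Genes named with full values are the 5 with the highest −log10 q in each list, those with peaks in both lists and the strongest of each class; other histone supply genes are named at a q of at most 0.05. Further genes were named after their values were seen. The members and gene lists were chosen with earlier results of these data known. Alternatives were window sizes, flanks, joining distances, thresholds on q and fragments, lists of equal length by −log10 p, and every summit counted.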

Additional observations from a re-analysis of the deposited data

How the results depend on the processing

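With 1 library per group there is no spread between replicates, no library could be left out and every interval covers counting error only. No paired analysis was possible because each group has a single library. Peaks of 3 to 10 fragments lie near the calling threshold, so an unlisted site is not an empty one. Of 65 alternative values, 47 stayed within the error or within 1.5 times the count, and 18 moved. Some of the 47 could not move. Untreated counts at 4 or more fragments, or with lists of equal length, use the whole untreated list. The untreated count of histone genes became 8 with summits within 3 kb. At a q of at most 0.05 the counts were 24 with IL-4, 0 untreated and 24 with IL-4 alone. From a −log10 q of 5 upward they were 0, 0 and 0, beside 2.63%, 0.0548% and 2.58% of all genes. Joining genes up to 100 kb apart gave cluster to flank density ratios of 1.46 (IL-4) and 0.325 (untreated), and 4.5 for the ratio of these; joining up to 3 Mb gave 0.79 with IL-4 and 1.32 for the ratio. At a q of at most 0.05 the IL-4 density ratio was 2.48 and the ratio of ratios 3.46. At that q the density of histone gene-end windows over all such windows was 3.29 with IL-4 and 0 untreated, and the shares of cluster peaks that overlap were 0% and 0%. The larger joining distance adds the DNA between the chromosome 13 blocks; the causes of the other changes were not tested. Chosen after seeing the data, members by current symbol alone gave 42 with IL-4, 5 untreated and 37 with IL-4 alone. Leaving out the duplicated stretch left the counts at 43, 5 and 38. That setting could not change them, since the 6 genes of the stretch had no gene-end peak in either list.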
